A study of Mus musculus with 40 samples.

Results

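The Tcra repertoire of thymocytes was read as tables that cross each Trav segment with each Traj segment, in EACBE-/- and in wild-type mice. The 4 tables labelled as Tcra repertoires were used, out of 40 samples in the series, which also holds histone modification, chromatin conformation and other receptor repertoire libraries. Both groups had the C57BL/6 background, came from mice of 4 to 8 weeks, and held 2 libraries each. Wild-type libraries are labelled EACBE+/+. EACBE-/- is the only genotype given for the others, and the labels describe neither the element nor the allele. The labels name the tissue as thymus, and no other genetic change or treatment is given for these libraries. The labels do not say that the libraries came from separate mice, so p-values measure only the spread between these libraries, which may be technical. The tables count receptor segments alone, so the cell type could not be checked against other marker genes.

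The alpha chain of the T cell receptor is assembled in CD4+CD8+ thymocytes by joining 1 Trav segment to 1 Traj segment. Early joins tend to link proximal Trav segments, those nearest to the Traj array, to Traj segments at its 5′ end. Later joins on the same allele delete the earlier one and link more distal Trav segments to more 3′ Traj segments, so position along both arrays is commonly read as a record of repeated joining. J choice within a Trav segment and V choice within a Traj segment were therefore described apart from how often each segment was used.

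The tables held 10694 counts in wild-type replicate 1, 172388 in wild-type replicate 2, 19085 in EACBE-/- replicate 1 and 163953 in EACBE-/- replicate 2. Replicate 1 was thus the shallow library in both groups. In all, 105 Trav segments and 43 Traj segments had a count in every library, which gives 4515 possible pairs, of which 4432 were seen at least once. Pairs are written as Trav:Traj. The Trav segments were divided by their order on chromosome 14 (mm10) into distal (37 listed, from Trav1 at 52427967 to 52428876), central (35) and proximal (33, up to Trav21-dv12 at 53876016 to 53876752). The Traj segments were divided by number into a 5′ list of 13 (Traj61 to Traj42), a middle list of 16 (Traj41 to Traj22) and a 3′ list of 14 (Traj21 to Traj1). In these tables the array ran from Traj58 at 54157280 to 54157342 to Traj2 at 54217836 to 54217901. In total RNA, fewer cells that carry a join and less RNA per cell cannot be told apart.

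J choice within the Trav segments lay further toward the 5′ end of the Traj array in EACBE-/- thymocytes, mostly in distal and central Trav segments. Within the distal list, joins to the 3′ Traj list made up 35.3% and 42.04% in wild-type replicates 1 and 2, and 19.6% and 23.6% in EACBE-/- replicates 1 and 2. Within the central list they made up 34.1% and 41.9% in wild type, against 17.9% and 21.7% in EACBE-/-. The groups did not overlap in either list, and the mean share was 1.79-fold lower in distal and 1.92-fold lower in central segments. Within the proximal list the 3′ share was 11.5% and 17.7% in wild type, against 9.84% and 12.7% in EACBE-/-. There the groups overlapped, with means of 14.6% ± 4.36 and 11.3% ± 2.00 (SD, n = 2 each).

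The gap between distal and proximal segments in their 3′ share was close between replicates. It was 23.9 and 24.4 percentage points in wild type, against 9.77 and 10.96 points in EACBE-/-. The difference between groups (EACBE-/- minus wild type) was -14.1 points in replicate number 1 and -13.4 points in replicate number 2. With 2 libraries against 2, the exact two-sided permutation test over libraries cannot go below p = 0.333, which is the value it gave here.

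The share of the 5′ Traj list was correspondingly higher. Within distal segments it was 17.0% and 18.7% in wild type, against 26.8% and 26.9% in EACBE-/-. Within central segments it was 18.2% and 19.6% against 31.3% and 30.6%. Within proximal segments the 5′ share was 43.0% and 42.9% in wild type, against 44.0% and 45.0% in EACBE-/-. The mean position of a join along the array, counted from the start of Traj61, was 36.8 and 38.0 kb for distal segments in wild type, against 31.5 and 32.05 kb in EACBE-/-. For central segments it was 36.3 and 37.8 kb against 30.005 and 30.8 kb. For proximal segments it was 25.8 and 26.97 kb against 25.4 and 25.5 kb.

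**Figure D1:**
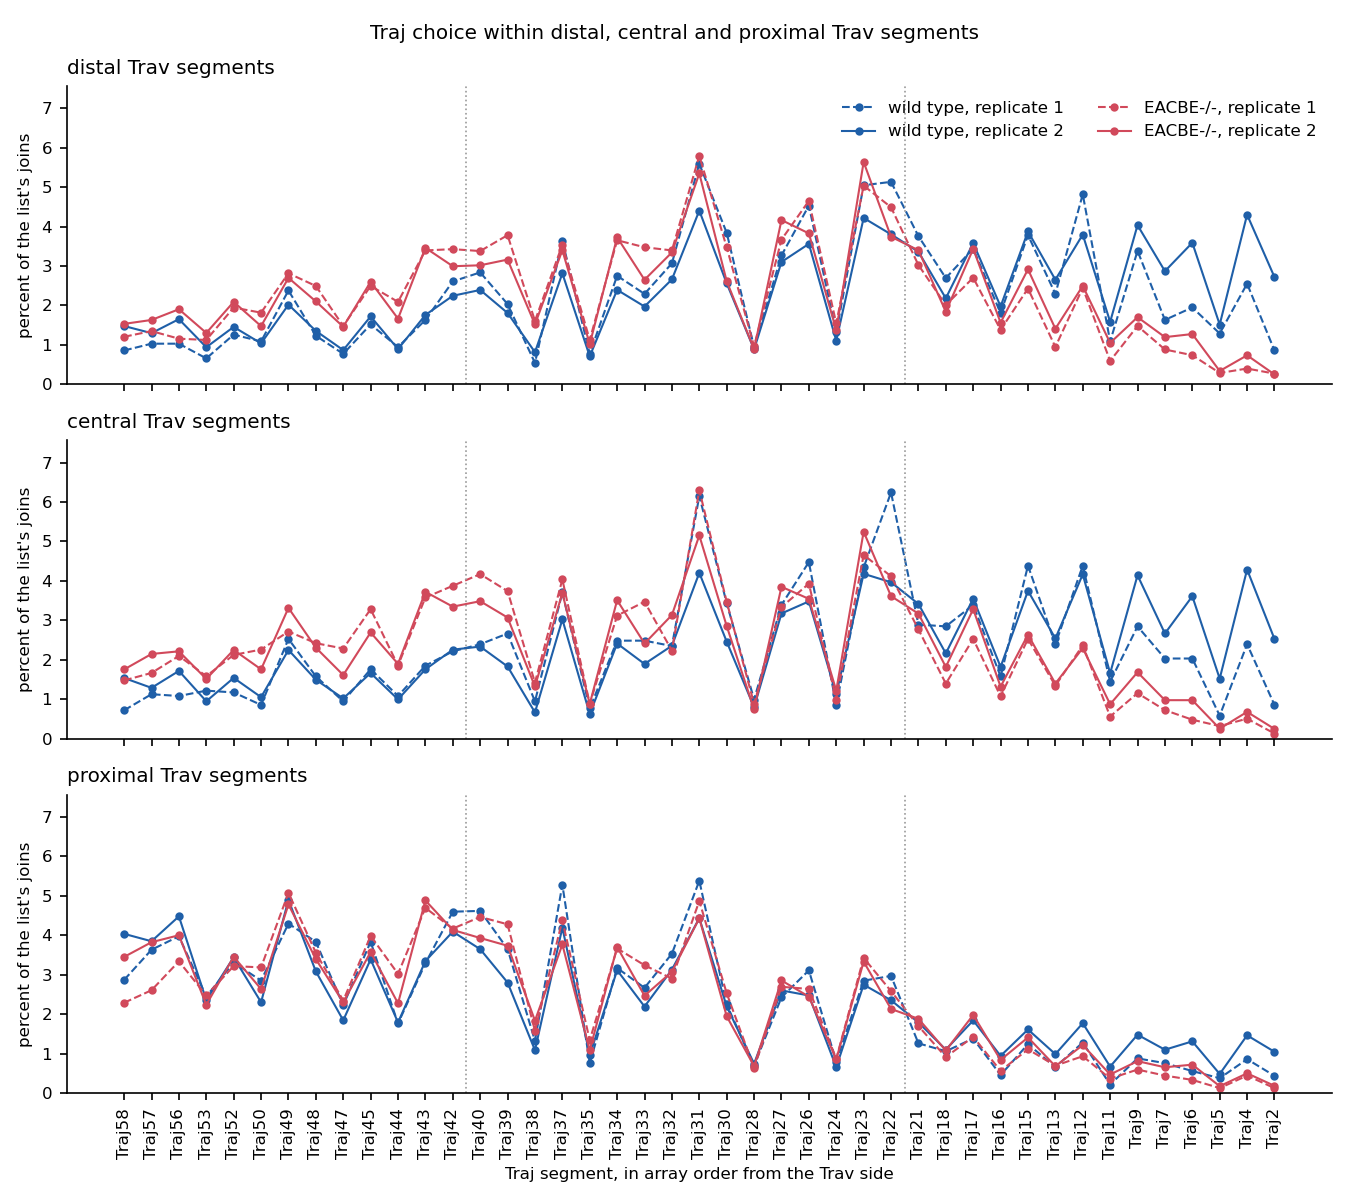
Percent of joins (y axis) to each Traj segment in array order (x axis) within distal, central and proximal Trav segments, 1 line per library, with dotted lines between the 5′, middle and 3′ Traj lists. In the distal and central panels the EACBE-/- lines lie above the wild-type line of the same number throughout the 5′ list and below it toward Traj2. In the proximal panel the lines lie closer together, and EACBE-/- lies below the wild-type line of the same number from Traj9 to Traj2.

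Single Traj segments followed the same division. Within distal Trav segments, all 13 of the 5′ Traj segments were higher in EACBE-/- in both replicate numbers, and 13 of the 14 3′ segments were lower in both. Within central segments the counts were 13 of 13 higher and 14 of 14 lower. Within proximal segments, 5 of the 13 5′ segments were higher and 3 lower in both numbers, and 9 of the 14 3′ segments were lower and 2 higher.

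The difference grew toward the 3′ end of the array. Traj17, near the start of the 3′ list, took 3.44% and 3.58% of distal joins in wild type, against 2.70% and 3.43% in EACBE-/-. Traj12 took 4.82% and 3.80% against 2.45% and 2.496%. Traj4 (54216291 to 54216353) took 2.55% and 4.30% against 0.402% and 0.737%, a 6.01-fold lower mean. That segment was also lower within proximal Trav segments, at 0.864% and 1.47% against 0.448% and 0.506%, a 2.45-fold lower mean. Traj2 within distal segments was at 0.860% and 2.72% in wild type, against 0.274% and 0.253% in EACBE-/-, so the wild-type replicates themselves differed about as much as their mean. Of the Traj segments with a higher share, Traj43 within distal segments was at 1.63% and 1.76% against 3.40% and 3.46%. It was also higher within proximal segments, at 3.29% and 3.35% against 4.70% and 4.88%. Traj38 within distal segments was at 0.545% and 0.817% in wild type, against 1.61% and 1.52% in EACBE-/-.

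When each Trav segment was tested by itself, the 3′ share fell in many. Of 103 Trav segments tested, 36 were lower in EACBE-/- at an adjusted p below 0.05 (35.0%; edgeR quasi-likelihood test with Benjamini-Hochberg adjustment) and 0 were higher, with 0 higher also at an unadjusted p below 0.05 and 0 higher by DESeq2. The lower calls were 14 of 37 distal, 17 of 33 central and 5 of 33 proximal segments. The median log2 change was -0.73 in the distal list, -0.76 in the central list and -0.43 in the proximal list, beside -0.68 over all segments tested. The libraries of the 2 groups did not overlap in 72 segments (69.9%), with wild type above in 70 of them. DESeq2 called 13 segments lower. With the replicate number as a block, 87 were lower and 1 was higher, Trav3-3 (log2 change 0.30, SE 0.14, edgeR adjusted p = 0.0444). With Traj31 to Traj1 as the 3′ list, 53 were lower and 3 were higher: Trav3-3, Trav17 and Trav5-4, the last chosen after its values were seen. The count of calls rested on having both libraries of each group: it was 0 without wild-type replicate 1, 0 without wild-type replicate 2, 1 without EACBE-/- replicate 1 and 4 without EACBE-/- replicate 2. The median change over all segments in these 4 fits lay between -0.82 and -0.46.

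Trav3-4, a proximal segment (53777071 to 53777576), had the largest fall as a log2 change. In percentage points other segments fell by more, Trav12n-1 among them. The 3′ share of Trav3-4 was 16.2% and 28.9% in wild type, against 2.53% and 5.42% in EACBE-/-. The EACBE-/- values rested on 2 of 79 and 25 of 461 counts. The log2 change was -2.38 (SE 0.34, edgeR adjusted p = 3.62e-09). Another proximal segment, Trav13-4-dv7, went from 6.25% and 12.99% to 3.80% and 5.29% (edgeR adjusted p = 0.000686). Trav12n-1, a central segment, went from 50.0% and 46.0% to 4.62% and 19.2% (log2 change -1.57, SE 0.30, edgeR adjusted p = 3.02e-05), with only 22 counts in wild-type replicate 1. Trav6n-6 went from 46.6% and 45.2% to 13.48% and 20.5%, and Trav13n-1 from 41.8% and 39.8% to 14.9% and 17.8%. Among distal segments, Trav10d went from 32.0% and 41.7% to 10.5% and 17.1%. Trav7d-5 went from 33.6% and 42.6% to 16.1% and 17.5%, and Trav4d-3 from 46.6% and 50.3% to 14.6% and 25.4%. In each of these segments both wild-type libraries lay above both EACBE-/- libraries, which was a condition for naming them. The fitted log2 changes of the segments after Trav3-4 lay between -1.57 and -1.16, down to that of Trav15n-1.

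The most proximal segments had little 3′ joining in either group. Trav21-dv12 was at 1.69% and 1.98% in wild type, against 1.21% and 1.86% in EACBE-/- (log2 change -0.17, SE 0.35, edgeR adjusted p = 0.678). Trav17 (53806639 to 53807115) was at 4.14% and 3.44% against 6.82% and 5.10%, so both EACBE-/- libraries were above, on 3 and 22 counts (edgeR adjusted p = 0.32). Trav19 was at 1.80% and 3.56% against 1.85% and 3.12%, while its 5′ share was 80.8% in both wild-type libraries and 75.2% and 73.3% in EACBE-/-. At the other end of the array, Trav1 and Trav2 (52567293 to 52568053) kept too few counts for a J profile: Trav1 had 2 and 27 counts in EACBE-/-, and Trav2 had 1 and 12. Trav3-3 (53666005 to 53666506) was 1 of 3 segments, of the 73 with at least 30 counts in every library, whose 3′ share was higher in EACBE-/- in both replicate numbers. It was at 8.16% and 12.9% in wild type, against 15.0% and 15.3% in EACBE-/-. Across the same 73 segments the 3′ share fell with proximity in every library, with Spearman rho from -0.75 in wild-type replicate 2 to -0.66 in EACBE-/- replicate 1 (a description across segments, which share a library).

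**Figure D2:**
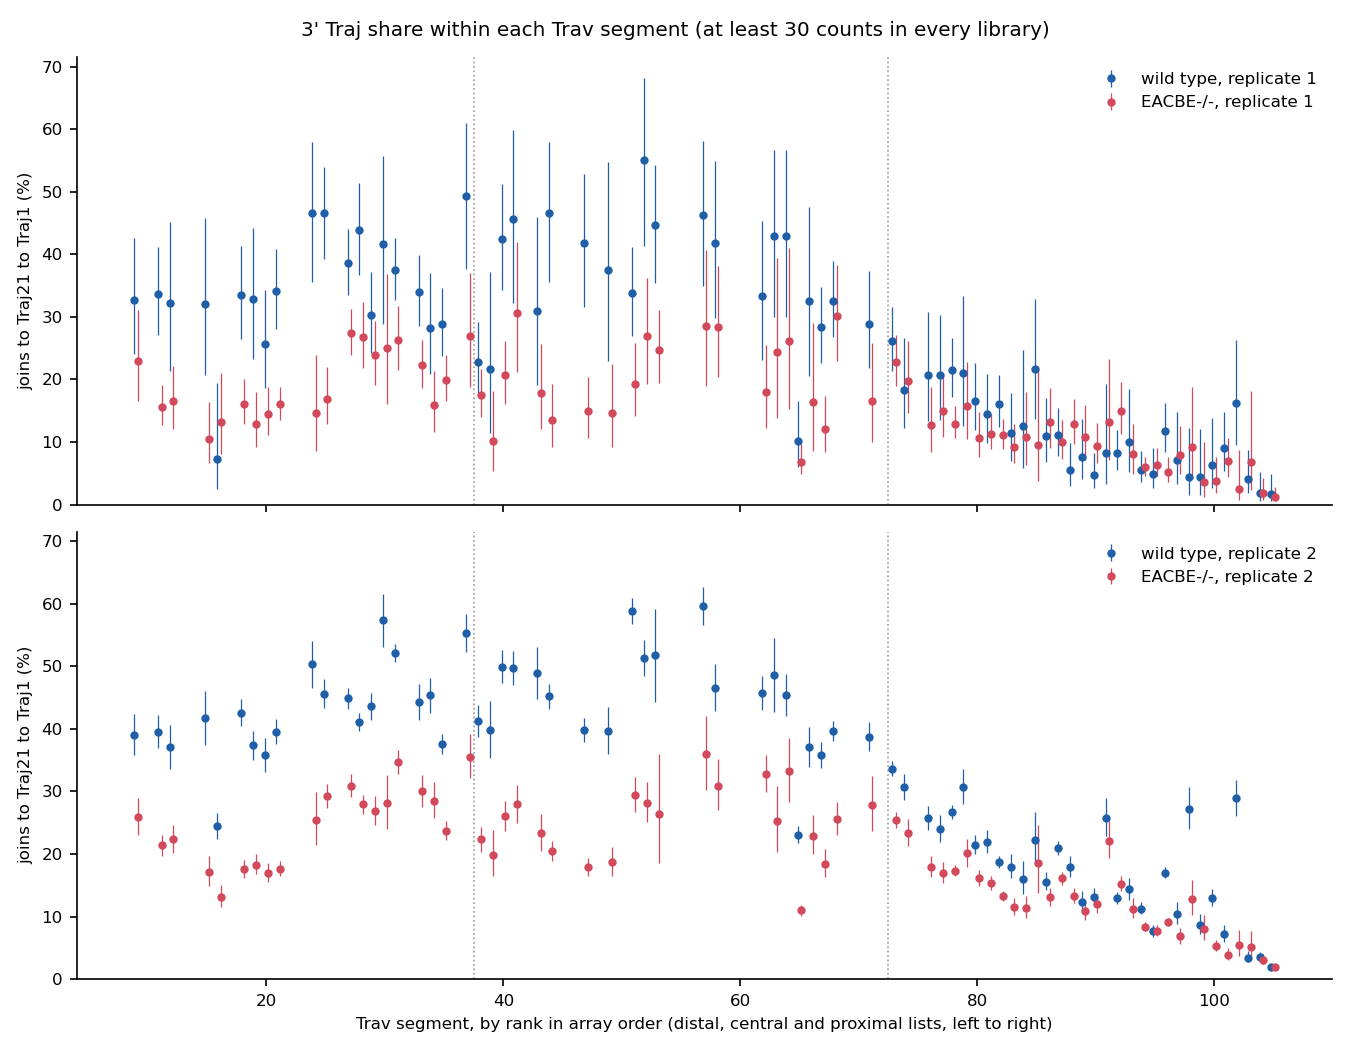
Percent of each Trav segment's joins that used Traj21 to Traj1 (y axis) against the segment's rank in the array (x axis), for replicate number 1 (top) and 2 (bottom), with 95% Wilson intervals that cover counting error only. Wild-type points lie above EACBE-/- points over most of the distal and central lists, and the groups meet among the last proximal segments.

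Several Trav segments exist in 3 copies, with D in the name of 1, N in that of another and neither in the third, which lies in the proximal list. For 10 such sets every copy had at least 30 counts in every library. In 10 of 10 sets the 3′ share was lower in EACBE-/- by more points in the N copy than in the proximal copy in both replicate numbers, and in 9 of 10 sets the same held for the D copy. The exception was the set of Trav6-6, whose D copy was at 7.32% and 24.4% in wild type, against 13.2% and 13.2% in EACBE-/-. In the other 9 sets the D copy had the higher wild-type share than the proximal copy, and so more points to lose. The N copy did in every set. As a part of the wild-type share the order could differ. For Trav13-4-dv7 in replicate number 2, the proximal copy went from 12.99% to 5.29%, the N copy from 37.1% to 22.9% and the D copy from 39.8% to 19.9%. In the set of Trav3-3, the D copy was at 37.5% and 52.1% in wild type, against 26.3% and 34.7% in EACBE-/-, and the N copy at 46.3% and 59.7% against 28.6% and 35.9%. In the set of Trav8-2, the D copy was at 49.3% and 55.3% in wild type, against 26.97% and 35.6% in EACBE-/-, while the proximal copy was at 4.35% and 8.69% against 3.57% and 8.03%. The copies are close to each other in sequence, and no source used here gives how the authors' counting divided reads between them.

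**Figure D3:**
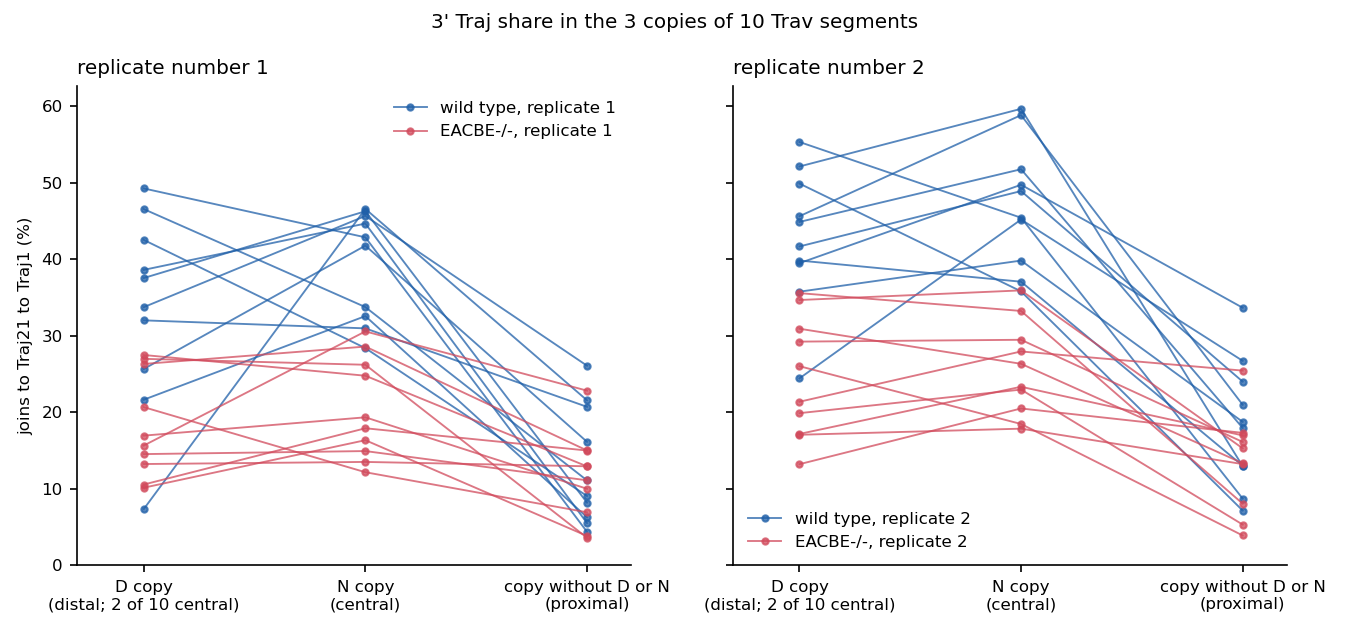
Percent of joins to Traj21 to Traj1 (y axis) in the D copy, the N copy and the proximal copy (x axis) of 10 Trav segments, 1 line per segment and group, for replicate numbers 1 and 2. Within each segment EACBE-/- lies below wild type at the D and N copies, apart from the D copy of Trav6-6 in replicate number 1, and the lines of both groups mix at the proximal copy.

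For single pairs, 2416 had enough counts for a test of J choice within V. At an adjusted p below 0.05 (edgeR), 123 pairs were lower in EACBE-/- (5.09%) and 26 were higher (1.08%). Of the lower calls, 117 joined a 3′ Traj segment: 57 of 248 tested in distal, 35 of 195 in central and 25 of 203 in proximal Trav segments. Traj4 was in 35 lower calls of 42 pairs tested, Traj9 in 17 of 55, Traj6 in 16 of 39, Traj2 in 15 of 15 and Traj5 in 12 of 16. A pair could pass the minimum count on its wild-type libraries alone, so these shares are a description of pairs that were frequent in wild type. The higher calls were led by Traj43 (9 of 71) and Traj38 (4 of 40). A pair called higher could likewise pass on EACBE-/- alone. All 6 higher pairs named below did so, among them Trav9n-3:Traj45, with 0 and 6 counts in wild type. DESeq2 with the same denominators called 0 pairs, with 75 at an unadjusted p below 0.05, of which 68 were lower. With the replicate number as a block, 204 pairs were lower and 142 higher. The minimum count was applied anew when a library was left out. Pairs tested then were 3492 without wild-type replicate 1, 880 without wild-type replicate 2, 3494 without EACBE-/- replicate 1 and 913 without EACBE-/- replicate 2. Leaving out a library gave 264 calls without wild-type replicate 1, 0 without wild-type replicate 2, 120 without EACBE-/- replicate 1 and 11 without EACBE-/- replicate 2.

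Of the 6 pairs with the largest falls, 4 joined Traj2. Trav14d-3-dv8:Traj2 took 2.36% and 3.49% of the joins of its Trav segment in wild type, against 0.405% and 0.082% in EACBE-/-, a log2 change of -4.44 (SE 0.76, edgeR adjusted p = 9.29e-07), on 1 count in each EACBE-/- library. Trav14d-3-dv8:Traj4 went from 2.36% and 6.97% to 0 of 247 counts and 0.41% (log2 change -4.11, SE 0.57, edgeR adjusted p = 8.62e-10). Trav12-2:Traj2, Trav12d-2:Traj2, Trav16d-dv11:Traj2 and Trav13n-4:Traj13 had log2 changes between -3.75 and -3.54. In each of these 4 pairs EACBE-/- replicate 1 had 0 counts and EACBE-/- replicate 2 had 2 to 5. Of the pairs that rose, Trav7d-4:Traj38 went from 0.592% and 0.845% of the joins of Trav7d-4 to 2.50% and 3.12% (log2 change 1.85, SE 0.51, edgeR adjusted p = 0.00756). Trav7d-5:Traj38 went from 0% and 0.456% to 1.79% and 1.64%, and Trav19:Traj38 from 0% and 0.396% to 1.11% and 1.56%. Trav9n-3:Traj45 was at 0% and 0.501% in wild type, against 4.81% and 2.56% in EACBE-/-. Trav12n-2:Traj52 was at 0% and 0.778% against 1.70% and 2.66%, and Trav10n:Traj40 at 2.38% and 0.909% against 4.07% and 4.17%. The groups did not overlap in any of these 6 pairs, which was a condition for naming them. All 6 passed the minimum count on EACBE-/- alone, with 0 or 1 counts in wild-type replicate 1 and 5 to 18 in wild-type replicate 2. Their changes therefore describe pairs that were frequent in EACBE-/-.

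The calls of V choice within the Traj segments were mostly lower ones, and Trav1 and Trav17 gave most of these. Of 2416 pairs tested, 43 were lower in EACBE-/- (1.78%) and 6 were higher (0.248%) at an adjusted p below 0.05 (edgeR). The lower calls were 13 of 722 pairs tested at 5′, 23 of 1048 at middle and 7 of 646 at 3′ Traj segments. Trav1 gave 19 of the lower calls among 20 of its pairs tested, Trav17 gave 10 of 19, Trav2 gave 3 of 6 and Trav3-3 gave 3 of 40. The tested pairs of Trav1 passed the minimum count on wild type alone, since Trav1 had 2 and 27 counts in EACBE-/- in all. Pairs of the other segments could do the same, as Trav17:Traj53 did, with 2 and 16 counts in EACBE-/-. These shares therefore describe pairs that were frequent in wild type. Both the balance and the leading segments depended on the fit: with the replicate number as a block, 257 pairs were lower and 239 higher. In that fit Trav7-2 gave 32 of the lower calls, Trav3d-3 gave 23, Trav7-3 gave 21, Trav1 gave 20 and Trav17 gave 17 (those other than Trav1 and Trav17 were chosen after their values were seen). DESeq2 called 14 pairs, all lower and all also called by edgeR. With a library left out, the pairs tested were again 3492, 880, 3494 and 913, in the order that follows. Leaving out a library gave 41 calls without wild-type replicate 1, 0 without wild-type replicate 2, 30 without EACBE-/- replicate 1 and 8 without EACBE-/- replicate 2.

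Trav1 and Trav2 were almost absent from EACBE-/- joins whatever the Traj segment. Over all Traj segments they took 1.25% and 1.72% of joins in wild type, against 0.0157% and 0.0243% in EACBE-/-, on 3 and 39 counts. In wild type their share was low at 5′ Traj segments (0.159% and 0.139%) and higher at middle (1.69% and 2.26%) and 3′ segments (1.72% and 2.63%). In EACBE-/- it was 0.0146% and 0.0231% at 5′, 0.0106% and 0.0207% at middle and 0.0359% and 0.0363% at 3′ segments. None of the 43 Traj segments had a higher share in both replicate numbers, and 29 had a lower one; in wild-type replicate 1, 14 Traj segments had 0 counts of either and so could not be lower. Trav1:Traj26 made up 2.43% and 2.87% of the joins of Traj26 in wild type and had 0 counts of 5508 in EACBE-/-, where 3 counts would be a share of 0.0545%, so it was at least 52.1-fold lower (edgeR adjusted p = 1.97e-11). Trav1:Traj32 was at 2.69% and 2.14% in wild type and at 0 of 5639 counts in EACBE-/-, at least 40.98-fold lower (edgeR adjusted p = 1.37e-10). Trav1:Traj15, Trav1:Traj12, Trav1:Traj30 and Trav1:Traj24 were also at 0 in both EACBE-/- libraries. Lower use was not particular to Trav1 and Trav2. Trav3-1, which follows them on the array, had 28 and 578 counts in wild type, against 2 and 100 in EACBE-/-. Trav5-1 had 46 and 936 against 2 and 88, and Trav7-1 had 47 and 679 against 9 and 105. Tested pairs called lower were 2 of 12 for Trav5-1 and 2 of 8 for Trav7-1 (edgeR). With the replicate block they were 3 of 3 for Trav3-1, 12 of 12 and 8 of 8. These 3 segments were chosen after their values were seen.

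Trav17 was lower at the 5′ Traj segments, which took 71.7% and 71.4% of its joins in wild type. Its share of 5′ joins was 3.32% and 2.29% in wild type, against 0.335% and 0.442% in EACBE-/-, a 7.21-fold lower mean. At the middle segments it was 0.702% and 0.632% against 0.191% and 0.194%, and at the 3′ segments 0.234% and 0.112% against 0.108% and 0.0799%, on 6, 57, 3 and 22 counts. All 13 of the 5′ Traj segments had less Trav17 in both replicate numbers. Trav17:Traj53, for example, was at 7.56% and 3.93% of the joins of Traj53 in wild type, against 0.562% and 0.533% in EACBE-/- (log2 change -3.23, SE 0.66, edgeR adjusted p = 0.000155; chosen after its values were seen). The most proximal segment, Trav21-dv12, took 4.59% and 6.62% of 5′ joins in wild type, against 4.89% and 7.04% in EACBE-/-.

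The 6 pairs that were called higher all used distal Trav segments and middle Traj segments. Trav14d-1 (52855665 to 52856166) took a larger share in both replicate numbers at 39 of 43 Traj segments, and over all of them 1.92% and 1.27% in wild type against 3.86% and 2.25% in EACBE-/-. Trav14d-1:Traj39 was at 1.28% and 0.645% of the joins of Traj39 against 4.57% and 2.62% (log2 change 2.16, SE 0.55, edgeR adjusted p = 0.00716). Trav14d-1:Traj26 was at 1.456% and 1.495% against 6.20% and 3.42%, and Trav14d-1:Traj27 at 2.26% and 1.09% against 5.01% and 3.55%. Trav7d-4 (52769863 to 52770392) was higher in both numbers at 30 of 43 Traj segments and lower in both at 3. These were 16 higher of 16 middle segments, 6 higher and 2 lower of 13 5′ segments, and 8 higher and 1 lower of 14 3′ segments. Trav7d-4:Traj32 was at 0.896% and 0.652% against 4.64% and 2.05%, and Trav7d-4:Traj27 at 0.645% and 0.681% against 4.01% and 2.01%. Trav8d-1:Traj30 was at 0% and 0.377% against 2.43% and 1.28%. This pair passed the minimum count on EACBE-/- alone, with 0 and 15 counts in wild type. In each of these pairs both EACBE-/- libraries were above both wild-type libraries, which was a condition for naming them. EACBE-/- replicate 1 was the higher of the EACBE-/- libraries.

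**Figure D4:**
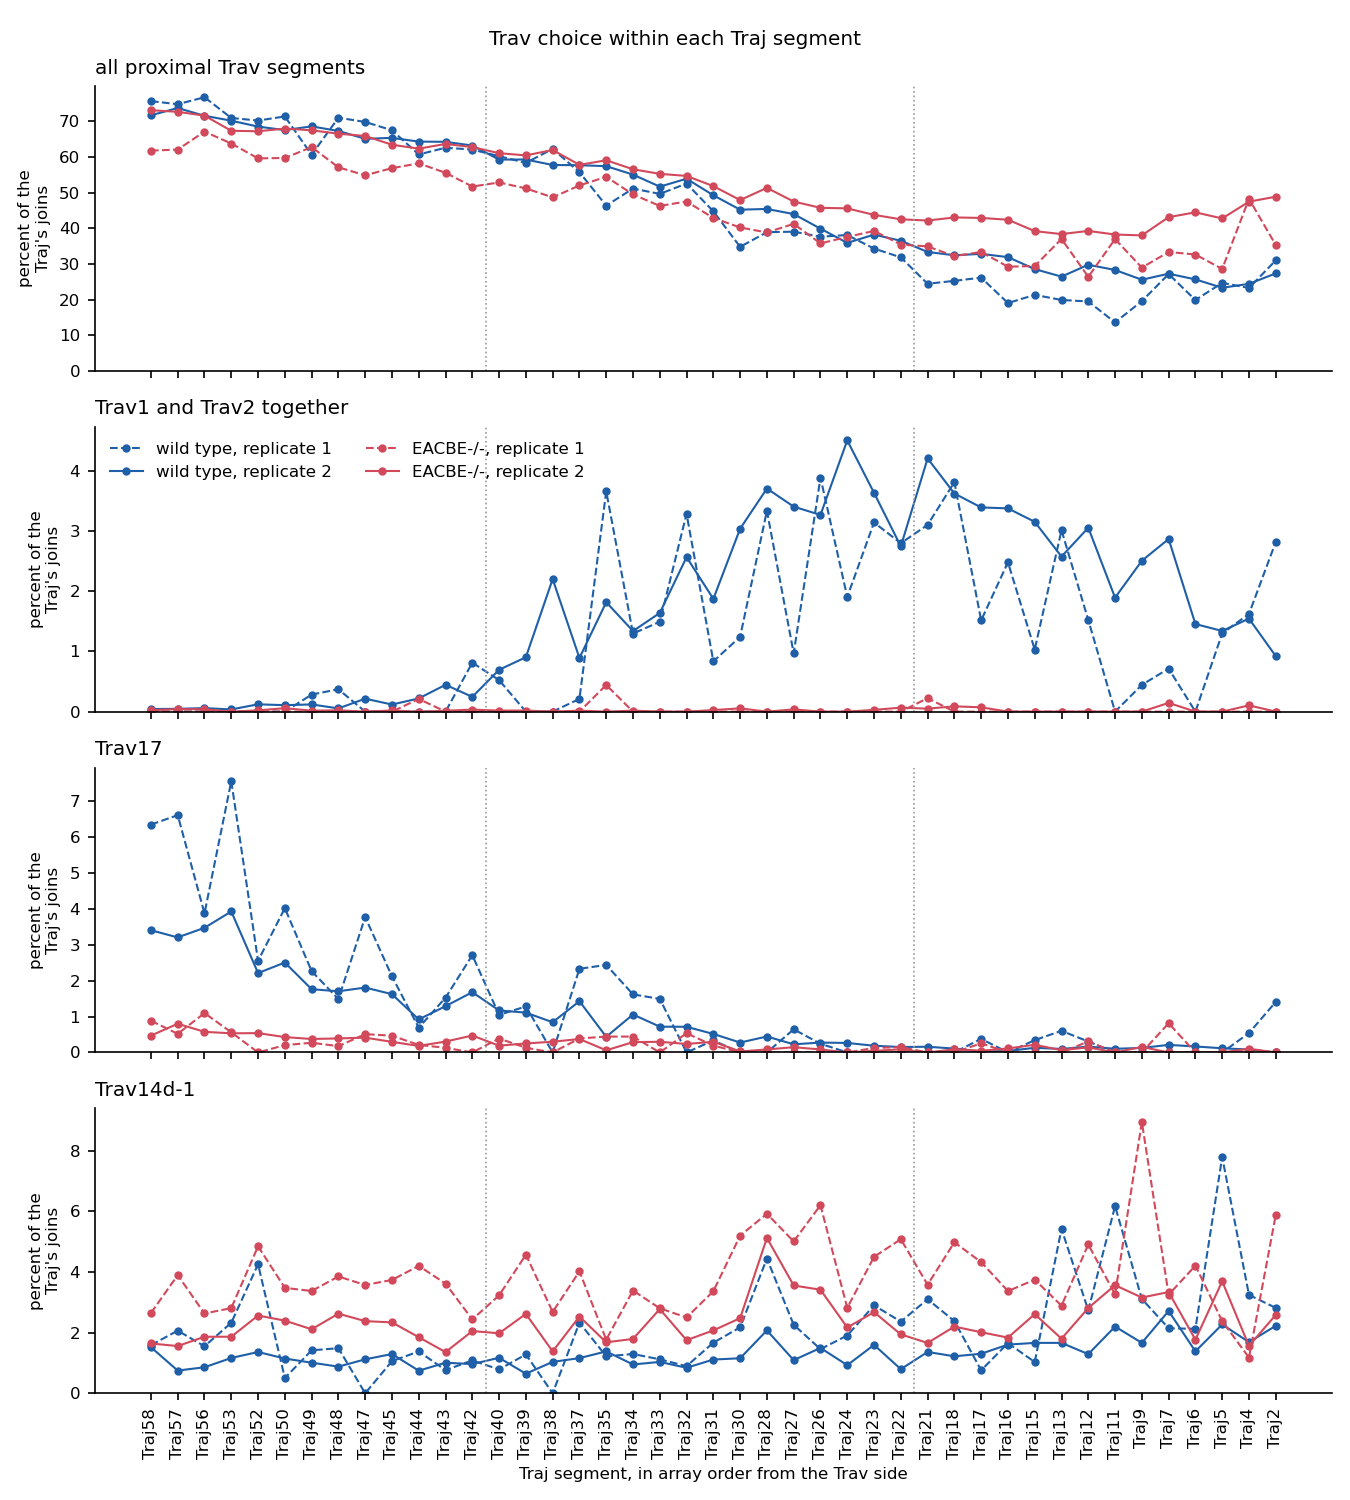
Percent of each Traj segment's joins (y axis) that used a proximal Trav segment, Trav1 or Trav2, Trav17, or Trav14d-1, along the Traj array (x axis), 1 line per library. EACBE-/- lines lie near 0 for Trav1 and Trav2 at middle and 3′ Traj segments. They lie below the wild-type line of the same number for Trav17 at 5′ segments. For proximal Trav segments they lie above the wild-type line of the same number in the 3′ list.

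Among the 3′ joins that remained in EACBE-/-, a larger part used proximal Trav segments. Their share of 3′ joins was 22.4% and 28.4% in wild type, against 32.3% and 41.5% in EACBE-/-, higher in both replicate numbers at 14 of 14 Traj segments. At Traj4 it was 23.2% and 24.4% against 48.2% and 47.5%. Within 5′ joins the proximal share was 68.2% and 68.0% in wild type, against 58.8% and 66.9% in EACBE-/-. Central segments held 29.46% and 30.7% of 3′ joins in wild type, against 23.9% and 22.2% in EACBE-/-. Distal segments held 48.2% and 40.8% of them in wild type, against 43.8% and 36.3% in EACBE-/-, so the groups overlapped. Tested for each Traj segment, the distal share gave 0 calls of 43 (0.00%; edgeR), with 0 at an unadjusted p below 0.05 and 0 by DESeq2. Leaving out EACBE-/- replicate 2 gave 4 calls, all higher, and leaving out EACBE-/- replicate 1 gave 1, lower. The groups did not overlap at 9 Traj segments (20.9%): 5 of the 13 5′ segments and 1 middle segment with EACBE-/- above, and 3 of the 14 3′ segments with wild type above. The lowest p was at Traj4, whose distal share was 48.1% and 43.1% in wild type, against 29.4% and 32.5% in EACBE-/- (log2 change -0.51, SE 0.27, edgeR adjusted p = 0.945). Traj13 followed the same direction, at 48.2% and 42.7% against 34.1% and 37.1%. Traj48 and Traj52, at the 5′ end, were higher, at 16.0% and 17.8% against 27.1% and 19.3%, and at 18.7% and 17.5% against 24.4% and 19.1%. At Traj56 the distal share was 13.95% and 15.92% against 15.8% and 16.0%, and the groups overlapped there and at Traj57 and Traj58.

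Standardisation separated choice within segments from the use of the segments. The 3′ Traj share over all Trav segments was 24.0% and 30.2% in wild type, against 14.6% and 17.1% in EACBE-/-. With each EACBE-/- library given the Trav use of the wild-type library of its number, it became 16.2% and 18.9%. The differences (EACBE-/- minus wild type) were -9.37 and -13.03 points as measured, and -7.75 and -11.3 points at wild-type Trav use. For Trav1 and Trav2 together, the share at wild-type Traj use was 0.0117% and 0.0265% in EACBE-/-, beside 1.25% and 1.72% in wild type. The differences were -1.23 and -1.69 points at wild-type Traj use, beside -1.23 and -1.70 points as measured. The exact two-sided permutation test gave p = 0.333 for both measures, again the smallest possible.

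Pairing was last tested against the count that a pair's Trav total and Traj total together give, so that a ratio of 1 means that the pair was as frequent as its margins predict. Of 2416 pairs, 31 were lower (1.28%) and 13 higher (0.538%) at an adjusted p below 0.05 (edgeR). Of the lower calls, 22 joined a proximal Trav segment to a 5′ Traj segment, of 369 such pairs tested. Of the higher calls, 7 joined a proximal Trav segment to a 3′ Traj segment, of 203 tested. These 7 came from Trav3-3 (5) and Trav13-1 (2) alone. DESeq2 called 0, with 11 at an unadjusted p below 0.05. With a library left out, the pairs tested were again 3492, 880, 3494 and 913, in the order that follows. Leaving out a library gave 39 calls without wild-type replicate 1, 1 without wild-type replicate 2, 24 without EACBE-/- replicate 1 and 1 without EACBE-/- replicate 2.

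Trav3-3 gave the most calls, with 9 lower pairs and 5 higher pairs of 40 tested. Trav3-3:Traj47 had a ratio of 3.20 and 1.60 in wild type, against 0.339 and 0.759 in EACBE-/- (log2 change -1.28, SE 0.28, edgeR adjusted p = 0.00156). Trav3-3:Traj53 went from 1.48 and 1.23 to 0.56 and 0.469, and Trav3-3:Traj56 from 0.422 and 0.569 to 0 and 0.233. At the other end of the array, Trav3-3:Traj4 went from 0.589 and 0.318 to 3.13 and 1.71 (log2 change 2.44, SE 0.41, edgeR adjusted p = 4.32e-06), on 3, 43, 4 and 35 counts. Trav3-3:Traj5 went from 1.41 and 0.446 to 3.17 and 2.23, Trav3-3:Traj6 from 0.258 and 0.295 to 1.40 and 1.02, and Trav3-3:Traj15 from 0.125 and 0.315 to 0.958 and 0.893. The groups did not overlap in these pairs, which was a condition for naming them. As a share of the joins of Trav3-3, the 5′ Traj list took 40.5% and 37.9% in wild type, against 21.95% and 27.3% in EACBE-/-. Outside Trav3-3, Trav9-4:Traj56 was lower (0.517 and 1.44 against 0.225 and 0.475), as were Trav7-6:Traj47 (4.00 and 2.72 against 1.70 and 1.06) and Trav14d-3-dv8:Traj4 (1.36 and 2.39 against 0 and 0.686). Trav7n-4:Traj37 was higher (0.984 and 0.564 against 3.09 and 1.35), as was Trav3-4:Traj49 (1.23 and 0.936 against 3.59 and 2.13).

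**Figure D5:**
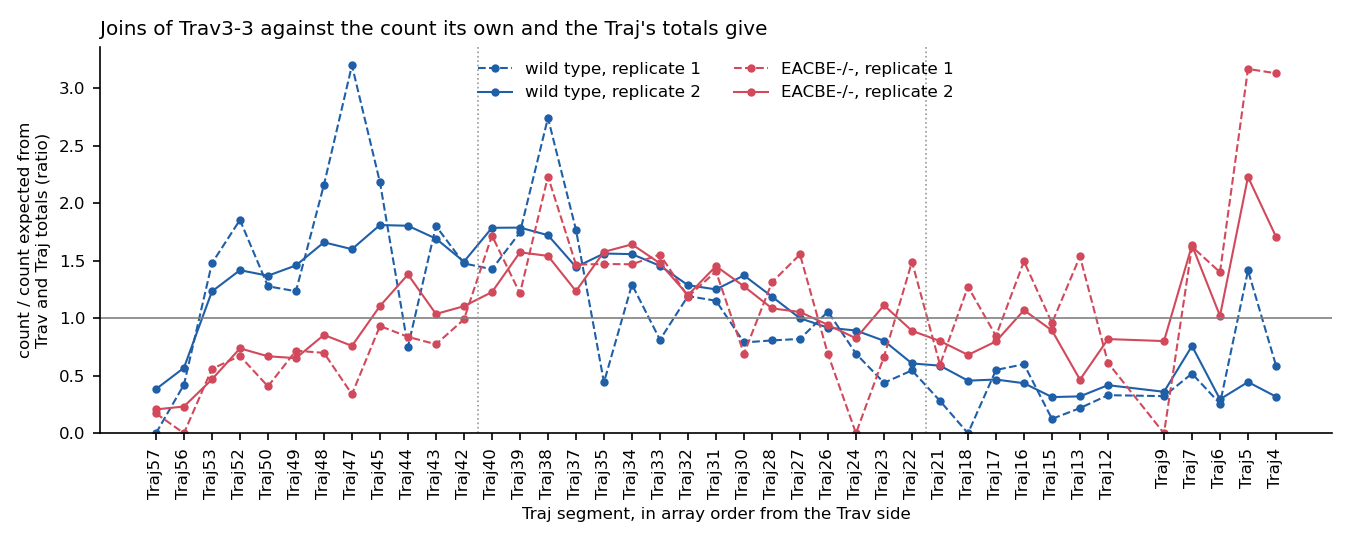
Ratio of the count of each Trav3-3 join to the count that the totals of Trav3-3 and of the Traj segment give (y axis, linear; the grey line marks a ratio of 1) for the 40 tested pairs along the Traj array (x axis), 1 line per library. EACBE-/- lines lie below wild type from Traj56 to Traj45 and above it from Traj7 to Traj4.

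Joins that mark invariant T cells were read by their segments alone, without the junction. Trav11:Traj18, the chain of invariant natural killer T cells, took 10.5% and 7.27% of the joins of Trav11 in wild type, against 4.48% and 5.08% in EACBE-/- (log2 change -0.62, SE 0.36, edgeR adjusted p = 0.369). As a share of the joins of Traj18 it was 2.86% and 2.65% against 2.299% and 2.86%, and the groups overlapped. Its copy Trav11d:Traj18 had 6, 1, 11 and 6 counts in the 4 libraries in the order wild type 1 and 2, EACBE-/- 1 and 2. Trav1:Traj33, the chain of mucosal-associated invariant T cells, had 4 and 44 counts in wild type, 1.49% and 1.26% of the joins of Traj33. It had 0 of 4676 counts in EACBE-/-, at least 20.0-fold lower (3 counts would be 0.0642%; edgeR adjusted p = 5.55e-05). Within Trav1 the same pair could not be compared, since Trav1 had 2 and 27 counts in EACBE-/-.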

How the data were processed

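Per the labels' protocols, cDNA was made from thymic RNA by oligo(dT) priming and template switching (5′ RACE), then amplified and sequenced. The authors deposited raw counts per V-J pair, 1 table per library. Neither how segments were assigned nor what a count stands for, a read or a receptor, is stated in the sources used here. If counts are reads, abundant transcripts and amplification weigh on every share. The genome build was mm10, per the submitters' processing notes. All 154 segment symbols matched a RefSeq annotation of GRCm38.p6, whose coordinates are given.

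Trav6-1 and 5 Trdv segments, not counted in every table, stayed out of tests and denominators. Pair and class counts were tested with edgeR 4.0.16 (glmQLFit, glmQLFTest; R 4.3.3). The offset was the log of the Trav count, the Traj count, or their product over the total. filterByExpr was run at its defaults (minimum count 10, minimum total 15). The minimum count holds for a library of median total and scales with each library's total, so fewer counts sufficed in replicate 1. Trav13n-4:Traj13, for example, was tested on 2 and 30 counts in wild type and 0 and 2 in EACBE-/-. P-values were adjusted by Benjamini-Hochberg over each test, at a threshold of 0.05. DESeq2 1.42.0 with the same offsets, no filter, a replicate block, other lists and leaving out each library were alternatives; a lone library in a group is then assumed to vary like the other group. Shares of single libraries have Wilson intervals at 95%, and intervals and limits from 3 counts cover counting error only. For the 3′ share of the distal list the interval is 33.8% to 36.95% in wild-type replicate 1, the shallowest.

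Named pairs were up to 6 in each direction per pair test, and Trav segments up to 10, by size of the log2 change among calls whose groups did not overlap. Where under 5 passed, features with the lowest p were added up to 5. Trav1, Trav2, Trav17, Trav21-dv12, Traj58, Traj57, Traj56, Traj4, Traj2 and the invariant pairs were always named. Trav segments of the copy sets, Trav19, Trav3-3 and single Traj segments beside these were chosen after their values were seen. The members and lists were chosen with earlier results of these data known.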

Additional observations from a re-analysis of the deposited data

Results flagged for a closer look

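Trdv2-2 (a Trd variable segment) was listed with Traj joins in the Tcra tables of replicate 2 alone. It made up 0.59% of counts in EACBE-/- replicate 2 (95% Wilson interval 0.554% to 0.628%) and 0.407% in wild-type replicate 2 (0.378% to 0.438%). It was singled out as signal outside the tested segments that lay above the control library. Trdv1 went the other way, at 1.53% in wild-type replicate 2 and 1.23% in EACBE-/- replicate 2. All listed Trdv segments together made up 2.01% and 1.89% of these libraries. With 1 library per group there is no replicate check.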

How the results depend on the processing

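The labels do not say that replicate numbers mark a shared batch, and 2 pairs of libraries are too few to establish a pairing from the data, so the block stayed an alternative. Same-numbered libraries were alike in depth, and both replicate 2 tables listed 5 Trdv segments where both replicate 1 tables listed 0. The correlation of their deviations was 0.187 for J choice, 0.407 for V choice, 0.0879 for pairing, 0.346 for the 3′ share and -0.0563 for the distal share. With the replicate block, calls were 346 for J choice within V (204 lower, 142 higher), 496 for V choice within J (257 lower, 239 higher), 85 for pairing (50 lower, 35 higher), 88 for the 3′ share (87 lower, 1 higher) and 1 for the distal share (lower). DESeq2 gave 0, 14, 0 and 13 calls for the first 4 of these. Without the filter, J choice gave 237 and pairing 29, each of 4432 pairs tested. With TMM factors and no conditioning V choice gave 106, and with Traj31 to Traj1 the 3′ share gave 56 (3 higher). Leaving out each library gave 0 to 264, 0 to 41, 1 to 39, 0 to 4 and 0 to 4 calls, in the same order; the lowest counts of the pair tests came without a replicate 2 library, the deeper ones, and the cause was not tested. In the pair tests, leaving out a replicate 2 library left 880 and 913 pairs to test, and leaving out a replicate 1 library 3492 and 3494. The standardised differences ranged from -11.3 to -7.75 points for the 3′ share and from -1.69 to -1.23 for Trav1 and Trav2. Of 561 values for named pairs and segments under alternatives, 421 stayed on the same side of the threshold, 133 lost the call and 7 gained one. None with a call in either fit changed sign. Direction was not compared where neither fit had a call. Depth limits replicate 1: 2847 pairs were above 0 in wild-type replicate 1 and 4486 in replicate 2.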

Other observations

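In the replicate 2 tables the Trdv segments joined mostly Traj segments of the 5′ and middle lists. Of the joins of Trdv1, the 3′ list took 1.86% in wild type (2629 counts) and 1.99% in EACBE-/- (2015 counts). Of those of Trdv2-2 it took 1.57% and 1.24%. Trav6-1 had 17 and 461 counts in wild type, against 0 and 71 in EACBE-/-, that is 0.267% of wild-type replicate 2 and 0.0433% of EACBE-/- replicate 2.

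Trav and pair use was less even in EACBE-/-. The number of equally used Trav segments that would give the same chance of drawing 1 segment on 2 draws (inverse Simpson) was 59.8 and 57.9 in wild type, against 53.1 and 49.3 in EACBE-/-. For Trav:Traj pairs it was 1634 and 1729 against 1507 and 1403. Thinned by formula to 10677 counts, the tables would show 2834 and 3014 different pairs in wild type, against 2687 and 2734 in EACBE-/-. Within distal Trav segments the number for Traj was 32.1 and 35.2 in wild type, against 32.3 and 33.7 in EACBE-/-, so the groups overlapped there.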
